A study of Brassica rapa subsp. chinensis with 24 samples.

Results

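Cytokinins are plant hormones derived from adenine that promote cell division, delay leaf ageing and restrain root growth. Isopentenyltransferases (IPT) add the side chain to adenine nucleotides, the first committed step of synthesis, and cytokinin oxidases (CKX) remove that side chain irreversibly. In Arabidopsis both families consist of several genes with different cell patterns, and many CKX genes are themselves induced by cytokinin.

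The genes described here are those carrying the Arabidopsis identifiers of CKX1 to CKX7, IPT3, IPT5 and IPT7. Of these 10 identifiers, 9 were found in the count table among its 20564 identifiers: 6 of the 7 CKX and all 3 IPT. AT1G75450 (CKX5) was not analysed here. The 9 identifiers label 27 of the 66566 rows, between 2 and 5 rows each, and the rows of an identifier were summed in each library. How rows of this Brassica received an Arabidopsis identifier is not given in the sources used here, so the Arabidopsis roles named below are background and may not hold for each row.

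The plants were wild-type Choy-sum, a leafy Brassicaceae crop (Brassica rapa subsp. chinensis), raised in peat-moss soil. SAB plants came from seeds dressed once with a suspension of Streptomyces and of Agromyces with Bacillus, and untreated plants came from seeds soaked in magnesium sulfate without bacteria. Entire leaves and entire roots were taken on day 8 (true leaves present) and on day 18 (mature plants before flowering). There were 8 groups with 3 independent biological replicates each, giving 24 libraries of polyadenylated RNA with 28068078 to 37999455 estimated counts. Levels are CPM, counts relative to a common library total, scaled with TMM factors over all 24 libraries. The deposited units are not whole reads, and 1 read of a row can be worth more or less than 1 unit. Levels of different identifiers are not compared, since transcript lengths are not at hand.

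The tissues matched their labels. The 9 photosynthesis markers found, of 10 listed, summed to 57850 to 130900 CPM in leaf libraries and to 27.6 to 399.8 CPM in root libraries. The 10 root markers summed to 876 to 2506 CPM in roots and to 11.3 to 27.0 CPM in leaves, where 1 of them was at 0 in all libraries of each day 8 group and 2 in those of each day 18 group. Whole organs were sequenced, so fewer cells of a type and less RNA per cell cannot be told apart in any value below.

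All 3 IPT identifiers were higher in root at day 8. In untreated plants of day 8, IPT5 (AT5G19040), which in Arabidopsis is active in root tips and lateral root primordia, stood at 11.8, 13.1 and 13.1 CPM in root. Its leaf values were 0.0278, 0.0175 and 0.0622 CPM, or 0.46 to 1.65 deposited units. The groups were far apart, with a log2 ratio of root to leaf of 8.14 (SE 0.69, edgeR adjusted p = 1.26e-08). Adjusted p-values are by the Benjamini-Hochberg method over all identifiers tested. At day 18 IPT5 held 13.2, 16.4 and 9.82 CPM in untreated root and at most 0.163 CPM in untreated leaf (log2 ratio 7.50, SE 0.65, edgeR adjusted p = 1.7e-08). All these leaf values lie below the floor of 3 reads (0.244 CPM). Without 1 leaf library the log2 ratio ranged from 7.54 (without replicate 2) to 8.96 (without replicate 3) at day 8, and was 6.93 without replicate 1 and 9.16 without replicate 3 at day 18. IPT5 stayed called each time. IPT3 (AT3G63110), the nitrate-induced phloem enzyme of Arabidopsis, was present in both organs. Its 3 untreated libraries of day 8 read 13.997, 12.8 and 18.3 CPM in root against 4.91, 3.13 and 3.79 CPM in leaf. The ratio was 3.82-fold at day 8 (log2 1.93, SE 0.41, edgeR adjusted p = 0.000453) and 3.91-fold at day 18 (log2 1.97, SE 0.42, edgeR adjusted p = 0.000439). IPT7 (AT3G23630), another synthesis enzyme, rested on few deposited units. It read 0.407, 1.19 and 2.33 CPM in untreated roots of day 8 and was at 0 in all 6 leaf libraries of that day, at least 1.83-fold higher in root (edgeR adjusted p = 0.0047). That bound takes 3 reads per library as the floor and covers counting error only. It assumes that a read is worth at most 4.71 units in this identifier, the smallest value above 0 of its coarsest row. Whether that value stands for at least 1 read was not tested. The bound holds for the mean, and root replicate 1 lies below the floor of 0.714 CPM. At day 18 IPT7 read 0, 0.100 and 0.207 CPM in untreated root and 0, 0 and 0.223 CPM in untreated leaf. It was not called between organs at that day (log2 ratio 0.55, SE 1.57, edgeR adjusted p = 0.785).

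The CKX identifiers divided between the organs. CKX7 (AT5G21482), whose Arabidopsis protein lacks a signal peptide and stays in the cytosol, was higher in leaf. It read 13.9, 16.1 and 11.4 CPM in untreated leaves of day 8 and 1.048, 1.08 and 1.04 CPM in untreated roots, 13.1-fold lower in root (log2 ratio -3.71, SE 0.24, edgeR adjusted p = 6.12e-11). At day 18 the ratio was 15.7-fold (log2 ratio -3.97, SE 0.24, edgeR adjusted p = 1.8e-11). CKX4 (AT4G29740), a root cap and trichome gene in Arabidopsis, showed the opposite pattern. Its untreated roots of day 8 held 2.08, 2.65 and 1.51 CPM, and the leaves of the same day 0.0237, 0.0362 and 0.0181 CPM (log2 ratio 6.91, SE 0.64, edgeR adjusted p = 4.2e-07). These leaf values lie below the floor of 3 reads, and the log2 ratio was 9.17 without untreated leaf replicate 2, so its size is loosely set while the call held without any 1 library. In the other 9 leaf libraries CKX4 was at 0. At day 18 the sum of CKX4 stood at 2.57 ± 0.449 CPM (SD, n = 3) in untreated root and at 0 in leaf (edgeR adjusted p = 1.36e-07). Against its floor of 3 reads per library (2.38 CPM, set by its coarsest row), the sum was at least 1.08-fold higher. This holds for the mean, and root replicate 1 (2.17 CPM) lies below that floor. Row 1 carries 92.3% of the units of CKX4 and stood at 2.30 ± 0.161 CPM (SD, n = 3) in those roots and at 0 in leaf. For this row alone the bound was at least 32.3-fold, against a floor of 3 reads per library (0.0712 CPM). Both bounds of CKX4 assume that the smallest value above 0 of a row stands for at least 1 read, which was not tested. Where it stands for less, the bounds are too high.

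CKX1 (AT2G41510), an enzyme of the endomembrane system in Arabidopsis, was 7.99-fold higher in root at day 8. Its 3 untreated root libraries read 3.18, 3.32 and 2.65 CPM and its leaf libraries 0.239, 0.325 and 0.545 CPM (log2 ratio 3.00, SE 0.43, edgeR adjusted p = 5.12e-06). These leaf values, of 4.74 to 14.45 units, lie below the floor of 3 reads for the sum (1.62 CPM, set by its coarsest row), so the size is loosely set. Row 1 alone was also called (log2 ratio 3.14, SE 0.46, edgeR adjusted p = 1.85e-05). At day 18 leaf and root overlapped, at 1.98 to 3.11 CPM in leaf and 1.46 to 3.996 CPM in root (log2 ratio 0.27, SE 0.38, edgeR adjusted p = 0.565). CKX6 (AT3G63440), which in Arabidopsis marks stomata and vascular tissue, gave the reverse order of days. Leaf and root overlapped at day 8 (log2 ratio -0.07, SE 0.37, edgeR adjusted p = 0.895). At day 18 its untreated roots held 29.1, 35.7 and 27.3 CPM and its leaves 13.7, 12.5 and 14.1 CPM (log2 ratio 1.19, SE 0.37, edgeR adjusted p = 0.00948). CKX3 (AT5G56970), which in Arabidopsis limits meristem activity, was near the threshold at both days, with log2 ratios of 0.65 (edgeR adjusted p = 0.0531) and 0.66 (edgeR adjusted p = 0.0532). DESeq2 called it at both days (adjusted p = 0.0321 and 0.0478), and without untreated leaf replicate 2 of day 8 edgeR did so at that day (0.00682). CKX2 (AT2G19500), a secreted oxidase in Arabidopsis, did not exceed 1.04 CPM in any library, below the floor of 3 reads for its sum (1.055 CPM). The sum of CKX2 was lower in root at day 8 (log2 ratio -3.24, SE 1.12, edgeR adjusted p = 0.017). That call was lost without untreated root replicate 3 (adjusted p = 0.0615), and the log2 ratio was -4.06 without root replicate 1. Row 1, with 79.2% of its units, was not called at day 8 (log2 ratio -1.14, SE 1.12, edgeR adjusted p = 0.476). Row 2 was above 0 in 4 libraries, all of leaf. At day 18 the sum was not called (adjusted p = 0.207).

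In counts, 5 of the 9 identifiers were higher and 2 lower in untreated root than in leaf at day 8, where 61.6% of all 19681 identifiers tested were called (32.7% higher and 29% lower). At day 18, 4 were higher and 1 lower, against 61.5% of all identifiers (33.4% higher and 28% lower). A call between organs was thus common in the whole table, and the size and direction of each ratio carry the description.

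**Figure D1:**
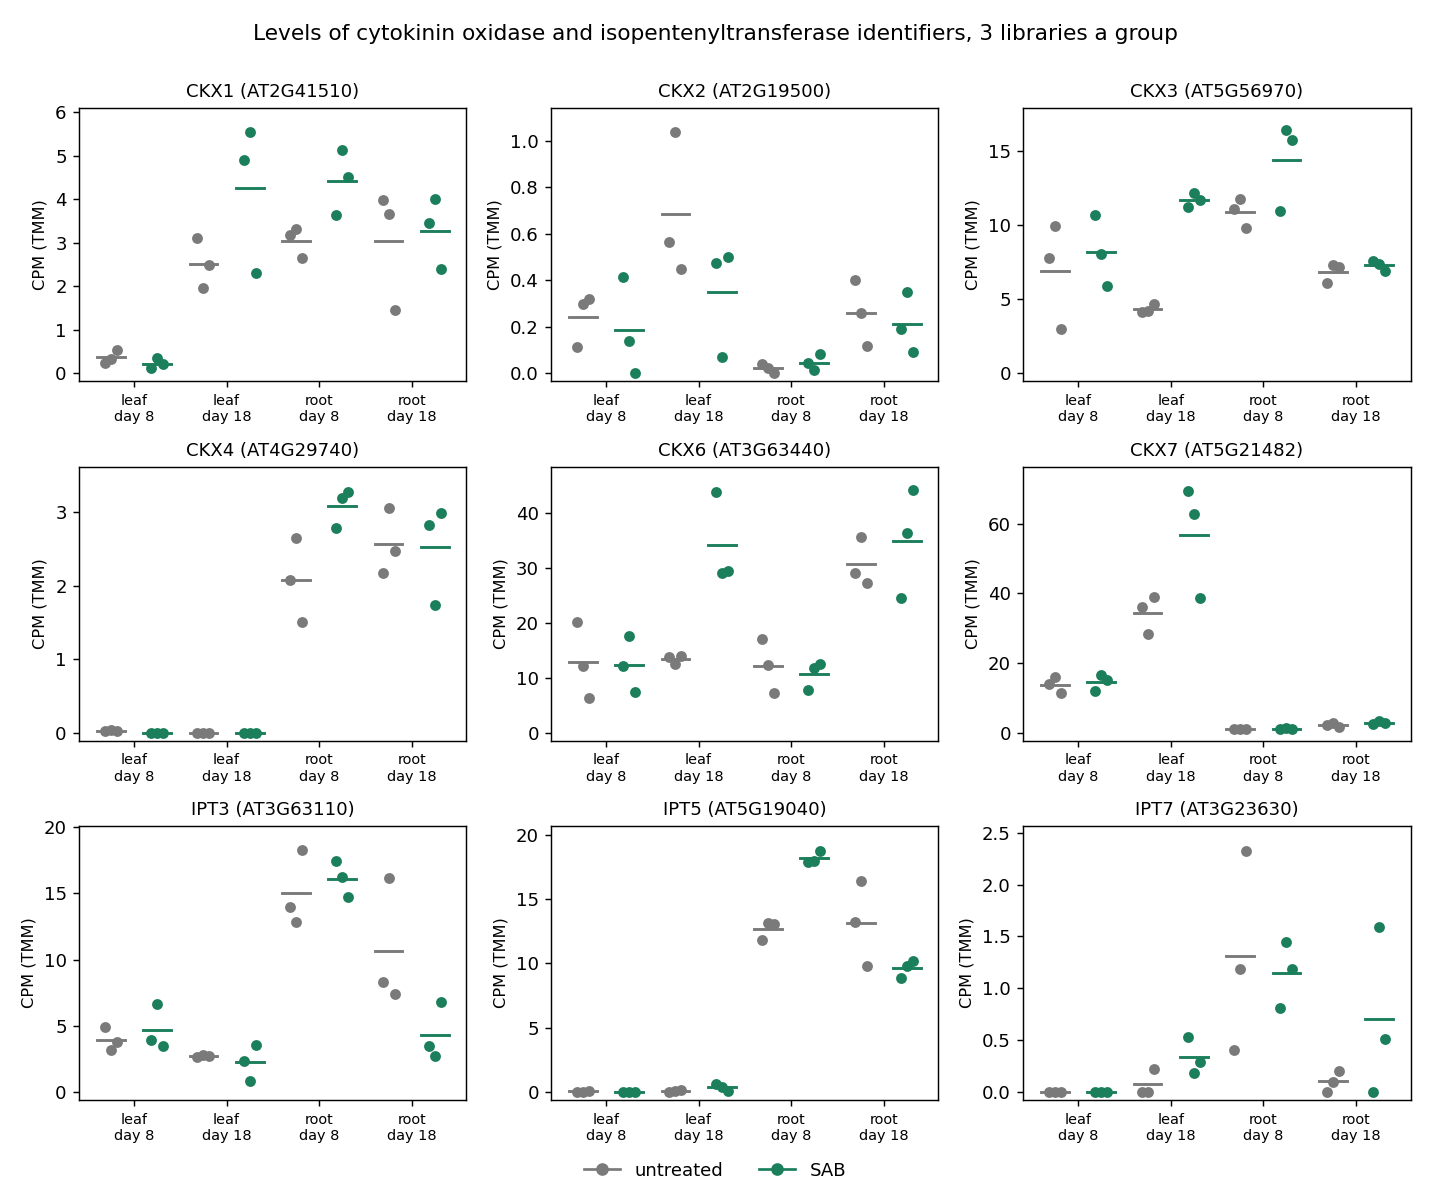
CPM (TMM-scaled, vertical axis from 0, a different range in each panel) of the 9 identifiers in the 8 groups of tissue and day. Points are the 3 libraries of a group, grey for untreated and green for SAB, and lines are means. IPT3, IPT5, IPT7 and CKX4 sit higher in root at day 8 and CKX7 in leaf, and SAB leaves of day 18 stand above untreated ones for CKX3 and CKX6.

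The order of the 8 groups shows how far each identifier separated them. For CKX7 the group means fell into 4 steps with gaps between them. SAB and untreated leaves of day 18 (means of 56.9 and 34.5 CPM) came first, then both day 8 leaf groups (14.5 and 13.8 CPM), then both day 18 root groups (2.84 and 2.19 CPM), then both day 8 root groups (1.07 and 1.054 CPM). Within each step the SAB and untreated ranges overlapped. For IPT5 the order was SAB root of day 8 (18.2 CPM), untreated root of day 18 (13.1 CPM), untreated root of day 8 (12.7 CPM) and SAB root of day 18 (9.60 CPM), with means of at most 0.351 CPM in the 4 leaf groups. Of these neighbours in root, the 2 untreated groups overlapped and the others did not, though SAB and untreated roots of day 18 overlapped each other. For CKX1 the first 6 groups (4.42 to 2.53 CPM) each overlapped the next, and a gap separated them from untreated and SAB leaves of day 8 (0.370 and 0.227 CPM). For CKX6 the SAB roots, SAB leaves and untreated roots of day 18 (35.0, 34.2 and 30.7 CPM) overlapped in turn and lay apart from the other 5 groups (13.4 to 10.7 CPM). For CKX3 the first 7 groups (14.4 to 6.86 CPM) overlapped in turn, and untreated leaf of day 18 (4.33 ± 0.310 CPM, SD, n = 3) lay below 6 of them, overlapping only untreated leaf of day 8, whose replicate 3 read 3.03 CPM. For IPT3 a gap lay below the 3 highest root groups (16.1, 15.03 and 10.6 CPM), and the leaf groups of day 18 came last (2.71 and 2.24 CPM). SAB root of day 18 (4.32 CPM) stood among the day 8 leaf groups (4.67 and 3.95 CPM) and not with the other roots. Neighbouring groups of CKX2 and IPT7 overlapped throughout.

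The differences with age that edgeR called were all among the oxidases, which made up 5 of the 6 identifiers tested in leaf and 6 of the 9 in root. Of the 6 identifiers tested in leaf, 2 were called between day 18 and day 8 in untreated plants, where 40.6% of 17706 identifiers were called (20% higher and 20.5% lower). Both were higher. CKX1 rose 6.59-fold, from 0.239 to 0.545 CPM at day 8 to 3.11, 1.98 and 2.496 CPM at day 18 (log2 fold 2.72, SE 0.46, edgeR adjusted p = 0.000882). Its day 8 leaf values, at 4.74, 8.52 and 14.45 units, lie below the floor of 3 reads for the sum (1.62 CPM, set by its coarsest row). Row 1 of CKX1 alone gave a smaller log2 fold of 1.98 (SE 0.55), so the size is loosely set. CKX7 rose 2.49-fold, to 36.1, 28.3 and 39.0 CPM (log2 fold 1.32, SE 0.23, edgeR adjusted p = 0.000969). Both groups of 3 were apart in each case, and both calls held without any 1 library. CKX3 (log2 fold -0.68, SE 0.36, adjusted p = 0.156), CKX6 (0.07, SE 0.39, adjusted p = 0.909), CKX2 (1.51, SE 1.02, adjusted p = 0.267) and IPT3 (-0.54, SE 0.43, adjusted p = 0.355) were not called in leaf by edgeR.

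In untreated roots 3 of the 9 identifiers rose with age and 1 fell, where 16.5% of 18973 identifiers were called (8.22% higher and 8.25% lower). In the same comparison the root markers summed to 1642 to 2506 CPM at day 8 and 904 to 1268 CPM at day 18, and 5 of 10 were called lower. The 9 photosynthesis markers summed to 27.6 to 146 CPM and 36.4 to 399.8 CPM, with a median log2 fold of 1.63, 0 of them called by edgeR and 0 with an unadjusted p below 0.05. Their part in the values that follow was not tested. CKX7 rose here too, from 1.04 to 1.08 CPM to 2.11, 2.71 and 1.76 CPM (log2 fold 1.096, SE 0.24, edgeR adjusted p = 0.0112), and stayed called without any 1 library. CKX6 rose from 17.1, 12.4 and 7.26 CPM to 29.1, 35.7 and 27.3 CPM (log2 fold 1.36, SE 0.32, edgeR adjusted p = 0.0177). Without replicate 2 of either day its adjusted p was 0.0504 or 0.0569. CKX3 fell, from 11.1, 11.8 and 9.82 CPM to 6.08, 7.33 and 7.18 CPM (log2 fold -0.63, SE 0.16, edgeR adjusted p = 0.0249). This call was lost without replicate 1 or 2 of day 8 or replicate 1 or 3 of day 18 (adjusted p = 0.0598 to 0.0796) and with all 24 libraries in 1 fit (0.114). CKX2 rose from at most 0.0394 CPM to 0.400, 0.262 and 0.117 CPM (log2 fold 3.45, SE 1.06, edgeR adjusted p = 0.0483), values of at most 16.8 deposited units, and no fit without 1 library kept that call (adjusted p = 0.0629 to 0.135). The 3 IPT identifiers were not called. IPT5 gave a log2 fold of 0.09 (SE 0.16) and IPT3 one of -0.45 (SE 0.35). IPT7 went from 0.407, 1.19 and 2.33 CPM to 0, 0.100 and 0.207 CPM (log2 fold -3.51, SE 1.34, edgeR adjusted p = 0.0996). DESeq2 called that difference (adjusted p = 0.03).

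**Figure D2:**
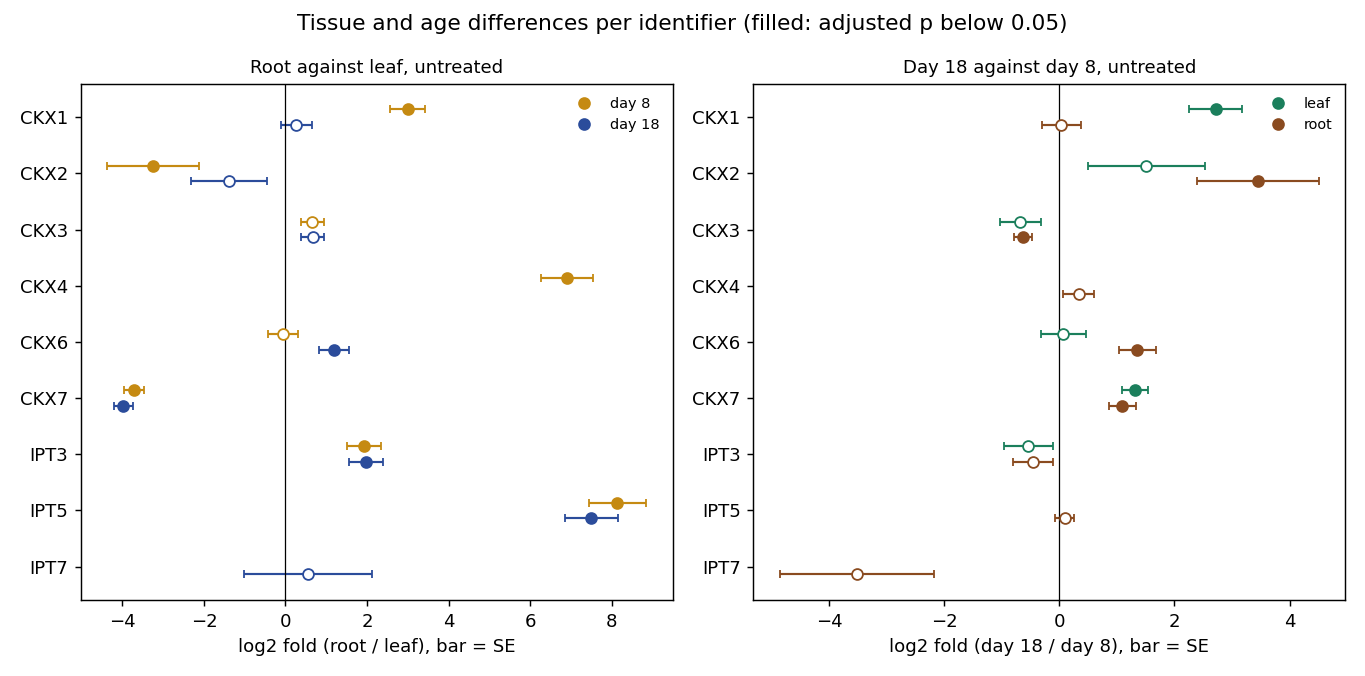
Log2 ratio of root to leaf (left) and of day 18 to day 8 (right) in untreated plants for each identifier. Points are edgeR estimates with bars of 1 SE, filled where the adjusted p is below 0.05. A comparison with a group at 0 in all libraries, or one not tested, has no point. IPT5 and CKX4 lie near 7 to 8 in root against leaf, and CKX7 rises with age in both organs.

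The dressing is described as growth-promoting, and the next comparisons ask which of these transcripts differed between SAB and untreated plants. The comparison at day 18 and the age comparison above share the untreated libraries of day 18, so their values are not independent. In leaves of day 18, edgeR called 3 of the 6 identifiers tested higher under SAB and 0 lower, where 14.4% of all identifiers were called (7.91% higher and 6.52% lower). All 3 are oxidases, as were 5 of the 6 identifiers tested in leaf. CKX3 read 11.2, 12.2 and 11.7 CPM in SAB leaves and 4.13, 4.18 and 4.69 CPM in untreated leaves, 2.73-fold higher (log2 fold 1.45, SE 0.36, edgeR adjusted p = 0.0223). All SAB libraries lay above all untreated ones. CKX6 read 43.8, 29.2 and 29.5 CPM against 13.7, 12.5 and 14.1 CPM, 2.57-fold higher with no overlap (log2 fold 1.36, SE 0.39, edgeR adjusted p = 0.0401). CKX7 read 69.3, 62.7 and 38.6 CPM against 36.1, 28.3 and 39.0 CPM, 1.67-fold higher (log2 fold 0.74, SE 0.22, edgeR adjusted p = 0.0478). SAB replicate 3 of CKX7 lay within the untreated range. The 3 SAB libraries lay above all 3 untreated ones in 2 identifiers, CKX3 and CKX6, which held for 13.8% of all identifiers tested.

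These 3 calls lay close to the threshold and depended on single libraries. CKX3 was lost without any 1 of the untreated replicates or SAB replicate 2 (adjusted p = 0.0501 to 0.0691), and CKX6 without any 1 library (0.0545 to 0.116). CKX7 was called only without SAB replicate 3 (0.0101), and otherwise gave 0.0666 to 0.157. The folds moved less, at log2 1.41 to 1.5005 for CKX3, 1.13 to 1.46 for CKX6 and 0.56 to 0.94 for CKX7. At the same day the 9 photosynthesis markers summed to 57850 to 66520 CPM in SAB leaves and 86500 to 112000 CPM in untreated leaves. Their part in the CKX values was not tested. The root markers summed to 15.04 to 23.5 CPM in SAB leaves and 17.7 to 27.0 CPM in untreated leaves, so they were not higher in SAB leaves.

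The other members tested in leaf at day 18 did not pass. CKX1 read 4.92, 5.55 and 2.30 CPM in SAB leaves and 3.11, 1.98 and 2.496 CPM in untreated leaves (log2 fold 0.77, SE 0.41, edgeR adjusted p = 0.253). IPT3 read 2.33, 0.834 and 3.55 CPM against 2.64, 2.79 and 2.72 CPM (log2 fold -0.26, SE 0.44, edgeR adjusted p = 0.744), and CKX2 had a log2 fold of -0.98 (SE 1.00, adjusted p = 0.573). IPT5, CKX4 and IPT7 were below the filter on low counts in leaf. IPT5 read 0.601, 0.415 and 0.0361 CPM in SAB leaves of day 18, against 0.0194, 0.0525 and 0.163 CPM in untreated ones, at most 15.7 units in any library. IPT7 read 0.529, 0.180 and 0.288 CPM in those SAB leaves and 0, 0 and 0.223 CPM in untreated leaves, all below its floor of 0.714 CPM.

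In leaves of day 8 edgeR called 0 of the 6 identifiers, and 0 had an unadjusted p below 0.05, where 0.424% of all identifiers were called. DESeq2 and limma-voom also called 0. CKX3 (log2 fold 0.23, SE 0.35), CKX6 (-0.06, SE 0.39) and CKX7 (0.06, SE 0.23), the identifiers that were higher at day 18, had overlapping groups at this age. The test of the difference between the days did not pass for any of them. The log2 SAB effect at day 18 minus that at day 8 was 1.22 for CKX3 (SE 0.50, edgeR adjusted p = 0.229), 1.42 for CKX6 (SE 0.55, adjusted p = 0.202) and 0.68 for CKX7 (SE 0.32, adjusted p = 0.287). CKX1 had a larger value, 1.55 (SE 0.65, adjusted p = 0.24). In this comparison 3 members had an unadjusted p below 0.05, DESeq2 and limma-voom called 0, and 2.46% of all identifiers were called. A change of the leaf effect with age was therefore not shown.

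**Figure D3:**
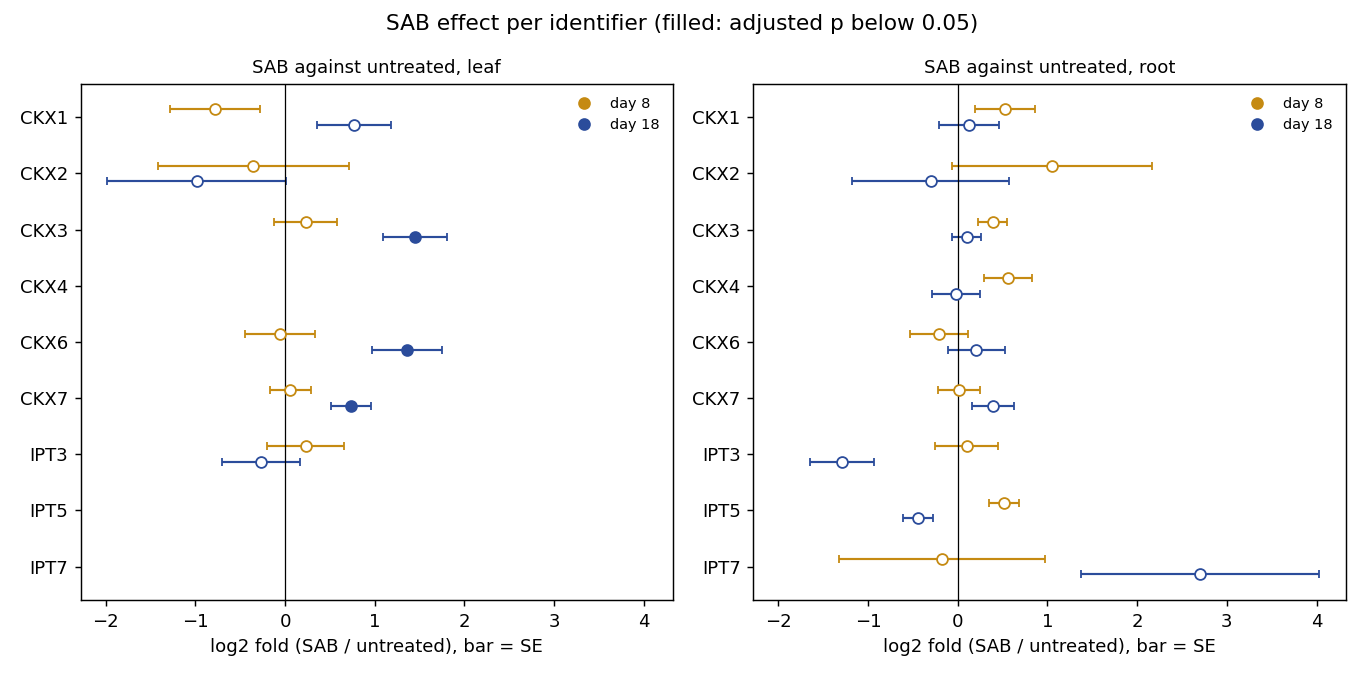
Log2 fold of SAB over untreated plants for each identifier in leaf (left) and root (right) at day 8 and day 18. Points are edgeR estimates with bars of 1 SE, filled where the adjusted p is below 0.05, and identifiers below the filter on low counts in leaf have no point. The 3 filled points are CKX3, CKX6 and CKX7 in leaves of day 18, and IPT3 and IPT5 lie below 0 in roots of day 18.

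In roots edgeR called no member at either day. At day 8 edgeR called 0 of the 9 identifiers, 2 had an unadjusted p below 0.05 (IPT5 and CKX3), DESeq2 and limma-voom called 0, and 0.0738% of all identifiers were called. IPT5 read 17.9, 17.9 and 18.8 CPM in SAB roots and 11.8, 13.1 and 13.1 CPM in untreated roots (log2 fold 0.52, SE 0.16, edgeR adjusted p = 0.262). These groups did not overlap. CKX1 (3.64, 5.13 and 4.51 CPM against 3.18, 3.32 and 2.65 CPM) and CKX4 (2.78, 3.20 and 3.28 CPM against 2.08, 2.65 and 1.51 CPM) were also higher in all 3 SAB libraries. Such an order held for 3 of the 9 identifiers and for 11.7% of all identifiers, and neither CKX1 (adjusted p = 0.588) nor CKX4 (adjusted p = 0.505) was called by edgeR. For CKX3 the log2 fold was 0.39 (SE 0.16, edgeR adjusted p = 0.44).

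At day 18 the root values of IPT3 and IPT5 were lower in SAB plants, without passing the test. IPT3 read 3.47, 2.72 and 6.76 CPM in SAB roots and 8.29, 16.2 and 7.40 CPM in untreated roots (log2 fold -1.29, SE 0.36, unadjusted p = 0.00458, edgeR adjusted p = 0.164). Its groups were apart, which held in that direction for 9.37% of all identifiers. IPT5 read 8.89, 9.76 and 10.2 CPM against 13.2, 16.4 and 9.82 CPM, with an overlap (log2 fold -0.44, SE 0.17, edgeR adjusted p = 0.295). edgeR called 0 members, 2 had an unadjusted p below 0.05, DESeq2 called 1 (IPT3, adjusted p = 0.022) and limma-voom 0, where edgeR called 0.764% of all identifiers. The 6 CKX identifiers had log2 folds between -0.30 and 0.39 in these roots. IPT7 was uneven, at 0, 1.60 and 0.513 CPM in SAB roots and 0, 0.100 and 0.207 CPM in untreated roots (log2 fold 2.70, SE 1.32, edgeR adjusted p = 0.449).

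The IPT5 effect in roots thus had opposite signs at the 2 days. Its change was a log2 value of -0.96 (SE 0.23, unadjusted p = 0.00185, edgeR adjusted p = 0.0745), which DESeq2 called (adjusted p = 0.00832) and edgeR called only without untreated replicate 3 of day 18 (0.0428). For IPT3 the change was -1.39 (SE 0.50, edgeR adjusted p = 0.241). Over the 9 identifiers edgeR called 0 changes in root, 2 had an unadjusted p below 0.05, DESeq2 called 1 and limma-voom 0, against 1.07% of all identifiers.

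Whether the SAB effect differed between root and leaf was tested across all 24 libraries. At day 18 the CKX3 effect was lower in root by a log2 value of 1.35, with a log2 difference of -1.35 (SE 0.40, unadjusted p = 0.00356, edgeR adjusted p = 0.123). CKX6 gave -1.16 (SE 0.52, edgeR adjusted p = 0.359) and CKX7 -0.35 (SE 0.30, adjusted p = 0.748). IPT5 gave -2.76 (SE 0.89, edgeR adjusted p = 0.164), a value that rests on leaf libraries with at most 15.7 units and that edgeR called without SAB leaf replicate 3 (0.0248). edgeR called 0 of the 9 members, 3 had an unadjusted p below 0.05, DESeq2 called 1 and limma-voom 0, against 1.02% of all identifiers. At day 8 edgeR called 0 members with 1 unadjusted p below 0.05 (CKX1, log2 difference 1.31, SE 0.62, adjusted p = 0.388), DESeq2 and limma-voom called 0, and 2.08% of all identifiers were called. The higher CKX3, CKX6 and CKX7 of day 18 leaves were therefore not shown to be particular to leaf.

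The sums were also split into their single rows, though how reads were divided among the rows of an identifier was not tested. In leaves of day 18 edgeR called row 2 of CKX6 alone among the rows of the 9 identifiers, where 5.47% of all rows were called. It carries 66.9% of the units of CKX6 and read 21.0, 26.8 and 25.2 CPM in SAB leaves and 6.54, 4.59 and 12.6 CPM in untreated leaves (log2 fold 1.64, SE 0.32, edgeR adjusted p = 0.018). The other rows of CKX6 had log2 folds of 1.41 (SE 0.53), 1.02 (SE 2.56) and -0.14 (SE 2.23), so row 4 did not share the sign of the sum. All 3 rows of CKX3 had positive log2 folds, at 2.91, 0.80 and 1.65 (edgeR adjusted p = 0.168, 0.202 and 0.245). The 5 rows of CKX7 were also positive, between 0.42 and 1.27, with the lowest edgeR adjusted p at 0.144. With age in untreated leaves, row 1 (log2 fold 1.07, adjusted p = 0.00203), row 3 (1.80, adjusted p = 0.036) and row 4 (2.22, adjusted p = 0.00855) of CKX7 and row 1 of CKX1 (1.98, adjusted p = 0.0295) rose. Row 1 of CKX6 rose as well (log2 fold 2.00, adjusted p = 0.027), though the sum of CKX6 did not. All of these are edgeR values, where 20.7% of all rows were called. With age in untreated roots edgeR called 0 of the 19 rows tested of the 9 identifiers, 6 had an unadjusted p below 0.05, and 5.5% of all rows were called.

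Rows 3 and 4 of CKX6 were present or at 0 by replicate number at day 18. Row 3 read 3.52 and 4.39 CPM in untreated leaf replicates 1 and 2 and 0 in replicate 3, and the untreated roots of the same numbers read 9.69, 11.97 and 0 CPM. In SAB plants it read 16.2 CPM in leaf and 9.43 CPM in root of replicate 1, and 0 in both organs of replicates 2 and 3. Row 4 followed the same division, with at most 0.474 CPM in the libraries where row 3 was at 0 at that day. At day 8 row 3 was at 0 in leaf replicate 3 of both treatments but read 2.44 and 4.39 CPM in the roots of those numbers. Row 2 moved the other way in roots of day 18, with 11.2 CPM in SAB replicate 1 and 32.9 and 40.6 CPM in replicates 2 and 3. In leaves of that day row 2 was lowest in replicate 1 among the SAB libraries and highest in replicate 3 among the untreated ones. The part of this division in the SAB fold of row 2 was not tested. How the reads were divided among the rows was not tested, and the values of single rows are uncertain. Whether leaf and root of a number came from the same plants is not given in the sources used here.

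**Figure D4:**
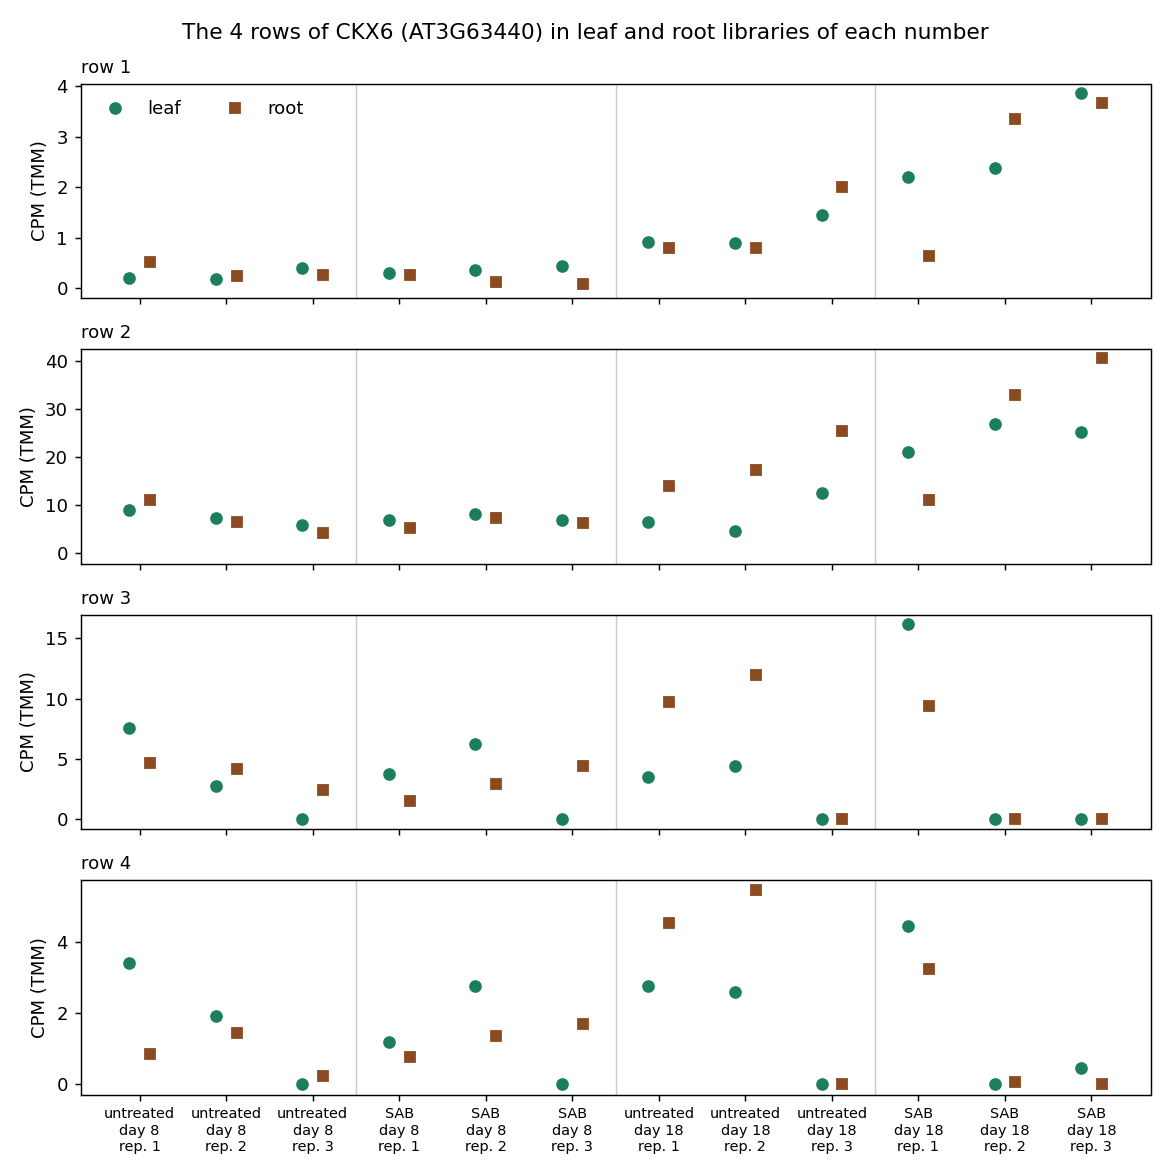
CPM (TMM-scaled) of the 4 rows of CKX6 in each treatment, day and replicate number, with leaf libraries as green circles and root libraries as brown squares. At day 18 rows 3 and 4 are at or near 0 in both organs of untreated replicate 3 and SAB replicates 2 and 3, while rows 1 and 2 are above 0 in every library.

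The rest of the cytokinin pathway was read from a list of 54 Arabidopsis identifiers, of which 48 were in the table: other IPT genes, CYP735A hydroxylases, LOG activating enzymes, glucosyltransferases, transporters, receptors, phosphotransfer proteins and response regulators of types A and B. In leaves of day 18, 3 of the 42 tested rose in SAB plants and 2 fell, against 14.4% called among all identifiers, with a median log2 fold of 0.14 against -0.00111 for all. LOG4, one of the enzymes that release active cytokinin bases, rose from 0.963, 1.00 and 3.11 CPM to 9.41, 13.6 and 9.07 CPM (log2 fold 2.69, SE 0.69, edgeR adjusted p = 0.0264). PUP14, a cytokinin importer, rose with no overlap, from 250.6 to 296.7 CPM to 393.8 to 733.1 CPM (log2 fold 1.04, SE 0.22, edgeR adjusted p = 0.0123), and lost its call only with all 24 libraries in 1 fit (0.0658). AHK4, a cytokinin receptor, fell from 2.83, 5.86 and 2.64 CPM to 1.00, 1.76 and 2.04 CPM (log2 fold -1.24, SE 0.34, edgeR adjusted p = 0.0343). ARR11, a type-B response regulator, fell by 0.36 on the log2 scale (SE 0.11, edgeR adjusted p = 0.0434), a call lost in 8 of 13 other settings. LOG4 lost its call without untreated replicate 1 or 2 or SAB replicate 2 (adjusted p = 0.071 to 0.088), with a log2 fold of 3.43 without untreated replicate 3, and AHK4 without untreated replicate 2, where its log2 fold was -0.75, or SAB replicate 1 or 2 (0.0649 to 0.107). AHP4, a phosphotransfer protein, was the other one that rose (log2 fold 1.29, SE 0.38, edgeR adjusted p = 0.0436) and is named after its value was seen. The 9 type-A regulators tested, which cytokinin induces in Arabidopsis, held 0 edgeR calls in that comparison.

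With age in untreated leaves, 11 of the 42 pathway identifiers rose and 10 fell, against 40.6% called among all. The LOG group held 4 that rose and 0 that fell of 7 tested (median log2 fold 1.92, against 0.00802 for all identifiers), and the type-A regulators held 2 that rose and 4 that fell of 9 (median -1.73). In untreated roots 7 of 45 rose and 4 fell with age, against 16.5%. Between organs, 20 of 47 were higher and 14 lower in root at day 8, against 32.7% higher and 29% lower among all identifiers, and both CYP735A identifiers, which make trans-zeatin type cytokinins, were among the higher ones at both days.

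For the CKX and the IPT identifier with the most deposited units over the 24 libraries, CKX6 and IPT5, the most similar patterns were sought by Pearson correlation of log2(CPM + 1), as a description. For IPT5 they were AT5G10625 (r = 0.995) and AT2G03360 (r = 0.994), and for CKX6 AT1G22280 (r = 0.883) and AT2G21510 (r = 0.877). The libraries come in groups of 3 with the same tissue, age and treatment, so they are not 24 independent points.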

How the data were processed

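Polyadenylated RNA of 24 libraries was measured. The submitters' processing notes name kallisto, Bowtie2 and Trim Galore, and the sources used here give neither their roles and versions nor the transcripts counted against. Per the file headers and values, the authors' deposited table holds estimated counts, of which 0.991% of those above 0 are whole, with totals of 28068078 to 37999455 per library. These expected counts were summed per identifier and rounded to whole numbers. The identifiers come without names, and the names used here are those of the Arabidopsis genes with these identifiers.

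The test was the quasi-likelihood F test of edgeR 4.0.16 under R 4.3.3 (limma 3.58.1), with TMM scaling, a filter on low counts (minimum count 10, total 15) and Benjamini-Hochberg adjustment over all identifiers at 0.05. One fit took the 12 libraries of each tissue, and all 24 for comparisons between tissues. DESeq2 1.42.0, limma-voom, other scalings, no filter, a replicate block, single rows and leaving out each library were alternatives. The fit was tested on simulated data. Beside the members, up to 2 higher and 2 lower pathway identifiers with the smallest adjusted p were named per comparison, and they are described for leaf at day 18. The members and lists were chosen with earlier results of these data known. At day 18, deviations of same-numbered leaf and root libraries were correlated (0.398 to 0.513), while those of day 8 were not (-0.0245 to 0.161). This pairing comes from the data and not from the labels. The main edgeR tests between organs used no block and so did not take it into account. For these comparisons only the replicate block alternative joined leaf and root of a number, and it did so at both days. Floors take the smallest value above 0 of a row, or of the coarsest row for a sum, as at least 1 read, which was not tested. Floors and the bounds taken from them cover counting error only, while the SEs of edgeR also take in the spread between libraries.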

Additional observations from a re-analysis of the deposited data

Results flagged for a closer look

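LOG1 is an enzyme that releases active cytokinin bases. Of the 47 identifiers of the pathway lists tested, it alone was called for a SAB effect that differed between root and leaf at day 18. In that test of the difference itself 1.02% of all identifiers were called. The log2 effect in root minus that in leaf was -1.01 (SE 0.18, edgeR adjusted p = 0.00906). In leaf it read 239, 199.9 and 226 CPM in SAB plants and 168, 157 and 194 CPM in untreated plants (log2 fold 0.37, SE 0.12, edgeR adjusted p = 0.0629). In root it read 4.06, 4.43 and 3.99 CPM in SAB plants and 7.19, 5.90 and 6.62 CPM in untreated plants (log2 fold -0.64, SE 0.15, edgeR adjusted p = 0.0941). In the same root comparison the 9 photosynthesis markers summed to 31.7 to 59.5 CPM in SAB roots and 36.4 to 399.8 CPM in untreated roots (median log2 fold -2.09, 7 of 9 with an unadjusted p below 0.05 and 0 called by edgeR), and their part in the LOG1 values was not tested. The LOG1 groups did not overlap in either organ. Such an order held for 13.8% of all identifiers in leaf (SAB above) and for 9.37% in root (SAB below). The call for the difference held in all 18 alternatives tried for it.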

How the results depend on the processing

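No member sum with an unadjusted edgeR p below 0.05 changed direction under the alternatives run on sums. Sums with little difference between groups are not covered by this and can change sign. Single rows can differ in sign from their sum, as row 4 of CKX6 did for the SAB effect in leaf at day 18 (log2 -0.14). Counts of members called that moved beyond 1.5 times were these. Single rows gave 1 identifier in place of 3 for the SAB effect in leaf at day 18 and 0 in place of 4 for age in root. DESeq2 called 1 member in place of 0 for the SAB effect in root at day 18 (IPT3), its change between days in root (IPT5) and its difference between root and leaf at day 18 (IPT5). Library totals without TMM also gave 1 (CKX3) for that difference. Leaving out 1 library gave 0 to 2 members for the SAB effect in leaf at day 18, 1 to 3 for age in root, and 0 to 1 for the change in root and for the difference between root and leaf at day 18. The replicate block called 2 members for the SAB effect in leaf at day 18 (CKX7 lost, adjusted p = 0.0827) and 3 for age in root (CKX2 lost, 0.0774), where the numbers do not pair the groups by the labels. With leaf and root of a number as the block, 7 members were called between organs at day 8 and 5 at day 18, as many as without it, with CKX3 (adjusted p = 0.0312) in place of CKX2 (0.0665) at day 8. Without TMM the median of all identifiers moved by 0.168 for the SAB effect in leaf at day 18 and by 0.751 and 0.761 between organs (log2). DESeq2 gave no adjusted p for CKX2 in the changes between days. CKX2, IPT7, leaf IPT5, leaf CKX4 and CKX1 in leaves of day 8 rest on few deposited units, and the cause of these changes was not tested.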
